A study of Mus musculus with 6 samples.

Results

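The regions described here are distal stretches of open chromatin that were present in all 3 ATAC-seq peak lists of NMuMG cells and covered fewer base pairs after 12 h of TGFβ1 than in vehicle. ATAC-seq marks accessible DNA by the insertion of sequencing adapters with the transposase Tn5, and NMuMG is an epithelial line from the normal mammary gland of the mouse. All cells were first kept for 6 h without serum and insulin. They then received vehicle and were taken after 2 h, or TGFβ1 at 5 ng/ml and were taken after 2 h or 12 h, with 2 biological replicates in each of the 3 conditions. The 12 h cells therefore differed from the vehicle cells in TGFβ1 and in time without serum, and these cannot be told apart. Both replicates of a condition entered 1 deposited list, so a value exists once per condition and has no replicate spread.

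The members were selected on their measured widths. Intervals of at least 150 bp were joined across gaps under 1000 bp, first within a list and then over the 3 lists, which gave 39435 union regions. Of these, 27986 lay more than 1000 bp from every annotated transcript 5′ end and are called distal, and 6373 distal regions held a region of each list. The width of a region in a list is the total length of that list's joined regions inside it, with bridged gaps included. Base pairs called covered, kept or lost below are counted on these joined regions, unless intervals alone are named. The 390 members had a 12 h width under 0.8 times the vehicle width, which is 6.12% of the 6373 shared distal regions. The other shared distal regions were divided into 2384 steady ones, with a ratio from 0.8 up to its inverse, and 3599 widened ones, whose vehicle width was under 0.8 times the 12 h width. Promoter regions, those within 1000 bp of a 5′ end, met the same limit in 221 of 8781 shared cases, or 2.52%.

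Distal open regions include enhancers, which bind sequence-specific transcription factors and act on genes over a distance. TGFβ binds receptor kinases that phosphorylate SMAD proteins, which accumulate in the nucleus and bind DNA with partner factors such as AP-1, a dimer of JUN and FOS family proteins. In mammary epithelial cells TGFβ sets off an epithelial-to-mesenchymal transition, in which cells loosen their junctions and express mesenchymal genes. A narrower region in a list means fewer base pairs in its joined peaks, bridged gaps included. It does not give the amount of signal, which was not analysed here. The methods of the study list fewer mapped and filtered reads for both late libraries than for any vehicle or early library, and the part of sequencing depth in the narrower widths was not tested. The label of the cells was checked on the 5′ ends of marker genes. Of 9 epithelial genes, Krt8 and Krt18 were covered in all 3 lists, Cdh1 at 2 h and 12 h and Cldn4 at 12 h, while Epcam, Cldn3, Cldn7, Esrp1 and Grhl2 were covered in none, so most of this list was absent in vehicle. Of 7 genes of blood and endothelium, 0 were covered in any list.

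The AP-1 motif, TGACTCA or its reverse complement TGAGTCA, was the motif whose share differed most between members and the other classes. The sequences below surround the match closest to the vehicle centre in the 6 members with the lowest width ratios that held a match in their vehicle region and lay in no exon. Each has 151 bases read 5′ to 3′ on the plus strand of NCBIM37 (mm9), and the capitals mark the match. The name is that of the nearest protein-coding gene.
Pcgf5 (chr19:36525922-36526072, plus strand): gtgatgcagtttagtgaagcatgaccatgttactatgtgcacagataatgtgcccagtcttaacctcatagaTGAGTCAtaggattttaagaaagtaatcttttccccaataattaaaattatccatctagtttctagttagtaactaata
Ywhaq (chr12:21431420-21431570, plus strand): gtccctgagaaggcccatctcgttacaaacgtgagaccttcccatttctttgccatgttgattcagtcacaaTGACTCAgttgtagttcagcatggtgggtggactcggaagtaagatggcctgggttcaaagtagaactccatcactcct
Gipc2 (chr3:151834943-151835093, plus strand): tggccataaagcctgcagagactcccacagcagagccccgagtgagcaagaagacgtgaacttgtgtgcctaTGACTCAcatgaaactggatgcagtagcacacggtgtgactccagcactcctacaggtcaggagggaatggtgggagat
Hmcn1 (chr1:153000286-153000436, plus strand): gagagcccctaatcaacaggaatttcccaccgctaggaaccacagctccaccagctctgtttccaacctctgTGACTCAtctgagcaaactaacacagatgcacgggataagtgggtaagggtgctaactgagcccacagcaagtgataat
Cebpg (chr7:35870086-35870236, plus strand): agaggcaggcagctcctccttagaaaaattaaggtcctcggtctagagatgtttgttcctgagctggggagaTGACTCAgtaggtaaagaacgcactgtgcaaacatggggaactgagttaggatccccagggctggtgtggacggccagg
Veph1 (chr3:65883198-65883348, plus strand): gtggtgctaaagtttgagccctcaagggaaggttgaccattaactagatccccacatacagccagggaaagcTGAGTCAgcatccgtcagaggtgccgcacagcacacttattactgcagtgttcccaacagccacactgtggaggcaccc

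In 4 of these 6 members, those near Pcgf5, Gipc2, Hmcn1 and Cebpg, the printed match lay inside the 12 h region. Near Veph1 the match was covered in vehicle and at 2 h but not at 12 h, and near Ywhaq it was covered in vehicle alone. The regions near Pcgf5 and Veph1 were intronic and the other 4 were intergenic. The region near Gipc2, a PDZ domain protein gene, went from 747 bp (vehicle) to 1865 bp (2 h) and 231 bp (12 h). The region near Cebpg, a bZIP factor gene, covered 2304 bp, 2230 bp and 734 bp.

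HNF1, a homeodomain factor of epithelial organs, binds sites close to GTTAATNAT, where N is any base. This motif was the one with the largest odds ratio above 1 for members, though it did not pass the adjusted threshold (values below). The 4 sequences were chosen by the same rule, and the capitals mark each match on either strand.
Cebpa (chr7:35928999-35929149, plus strand): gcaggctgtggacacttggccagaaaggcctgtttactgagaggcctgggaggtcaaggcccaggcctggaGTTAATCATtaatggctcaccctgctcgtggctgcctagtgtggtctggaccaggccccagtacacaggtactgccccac
Gm98 (chr19:10310348-10310498, plus strand): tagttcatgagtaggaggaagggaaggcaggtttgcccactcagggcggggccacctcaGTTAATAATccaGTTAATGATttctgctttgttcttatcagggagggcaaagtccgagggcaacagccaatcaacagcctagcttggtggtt
Uggt1 (chr1:36312046-36312196, plus strand): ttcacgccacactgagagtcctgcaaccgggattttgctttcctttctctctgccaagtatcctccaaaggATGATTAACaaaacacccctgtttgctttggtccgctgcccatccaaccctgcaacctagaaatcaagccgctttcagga
Ankrd5 (chr2:136443573-136443723, plus strand): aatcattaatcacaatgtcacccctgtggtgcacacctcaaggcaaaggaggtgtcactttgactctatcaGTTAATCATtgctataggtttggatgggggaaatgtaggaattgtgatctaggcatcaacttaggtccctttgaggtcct

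The printed HNF1 matches near Cebpa and Gm98 lay inside the 12 h region. Those near Uggt1 and Ankrd5 were covered in vehicle and at 2 h but not at 12 h. The printed stretch near Gm98 holds 2 matches, which lie outside the 500 bp scanned for the shares below, and each of the others holds 1. The Cebpa region lay 24296 bp from the 5′ end of Cebpa, the gene of a bZIP factor of the same family as Cebpg, and covered 773 bp (vehicle), 445 bp (2 h) and 253 bp (12 h). It lies close to the Cebpg region printed above on the same chromosome, as the printed positions show, so these are neighbouring places. The ratios of 12 h to vehicle width were 0.327 near Cebpa and 0.319 near Cebpg.

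The members covered a median of 657 bp (vehicle), 676 bp (2 h) and 415 bp (12 h). Their ratio of 12 h to vehicle width had a median of 0.674 and ranged from 0.172 up to just under the limit. The ratio of 2 h to vehicle width had a median of 1.01 and ranged from 0.252 to 5.15. Steady regions had a median of 558 bp (vehicle), 651 bp (2 h) and 588 bp (12 h), and widened regions 383 bp, 679 bp and 737 bp. The members were thus the widest class in vehicle and the narrowest at 12 h, while the 3 classes had medians of 651 to 679 bp at 2 h. These widths chose the classes and are given without a test.

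**Figure D1:**
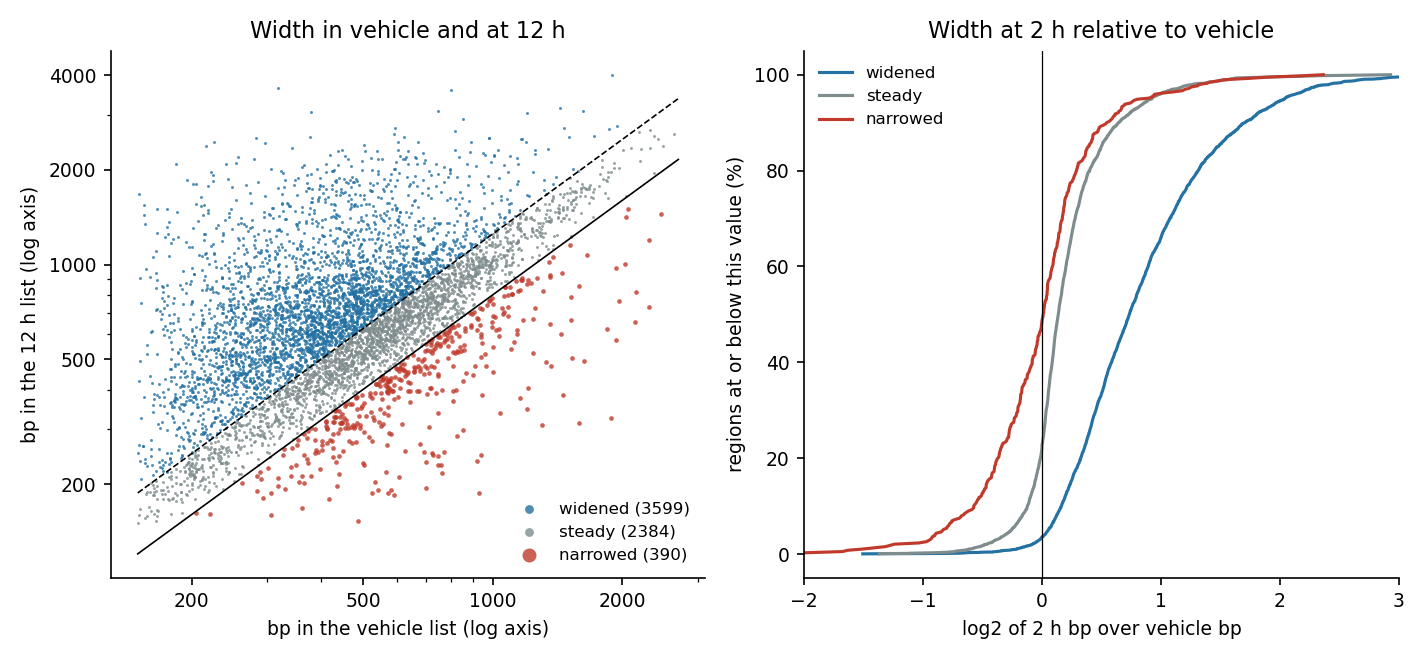
Left, base pairs covered in the vehicle list (x, log axis) and in the 12 h list (y, log axis) for each of the 6373 shared distal regions, with the limits at a ratio of 0.8 (solid line) and its inverse (dashed line); the 390 narrowed regions lie under the solid line by selection. Right, share of regions (y, %) at or below each log2 ratio of 2 h to vehicle width (x): the narrowed curve crosses 0 near its middle, since 51.5% of these regions were wider at 2 h than in vehicle.

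At 2 h the members had not narrowed as a class. A 2 h width under 0.8 times that of vehicle was seen in 90 of the 390 members, or 23.1% (95% Wilson interval 19.2 to 27.5), against 3.20% of all shared distal regions. The opposite, a vehicle width under 0.8 times that of 2 h, was seen in 71 members, or 18.2%, against 56.0% of all shared distal regions. The remaining 229 members, 58.7%, lay between these limits. Both shares share the vehicle width with the selection, so they describe the members and were not tested.

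Vehicle, 2 h and 12 h widths fell into a few orders. In 201 members, 51.5%, the region was widest at 2 h and narrowest at 12 h, and in 150 members, 38.5%, the width was lower at each later list. In the last 39 members, 10.0%, the 2 h width was already at or under the 12 h width. Of the steady regions, 16.7% had the first order and 6.00% the second. Among members the region was thus narrower at 12 h than at 2 h in 351 cases, 90.0%, beside 63.3% of steady and 36.8% of widened regions.

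The base pairs that left the list by 12 h were mostly still listed at 2 h. The members had 293794 bp in vehicle regions, of which 129860 bp, 44.2%, were not covered at 12 h. The 2 h list covered 92828 bp of these, or 71.5%. In 212 members, 54.4%, at least 80% of the lost base pairs were covered at 2 h, and in 36 members, 9.23%, none was. The steady regions lacked 5.94% of their vehicle base pairs at 12 h, of which 59.4% were covered at 2 h. Counted on intervals alone, without bridged gaps, the members' loss at 12 h was 110173 bp.

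**Figure D2:**
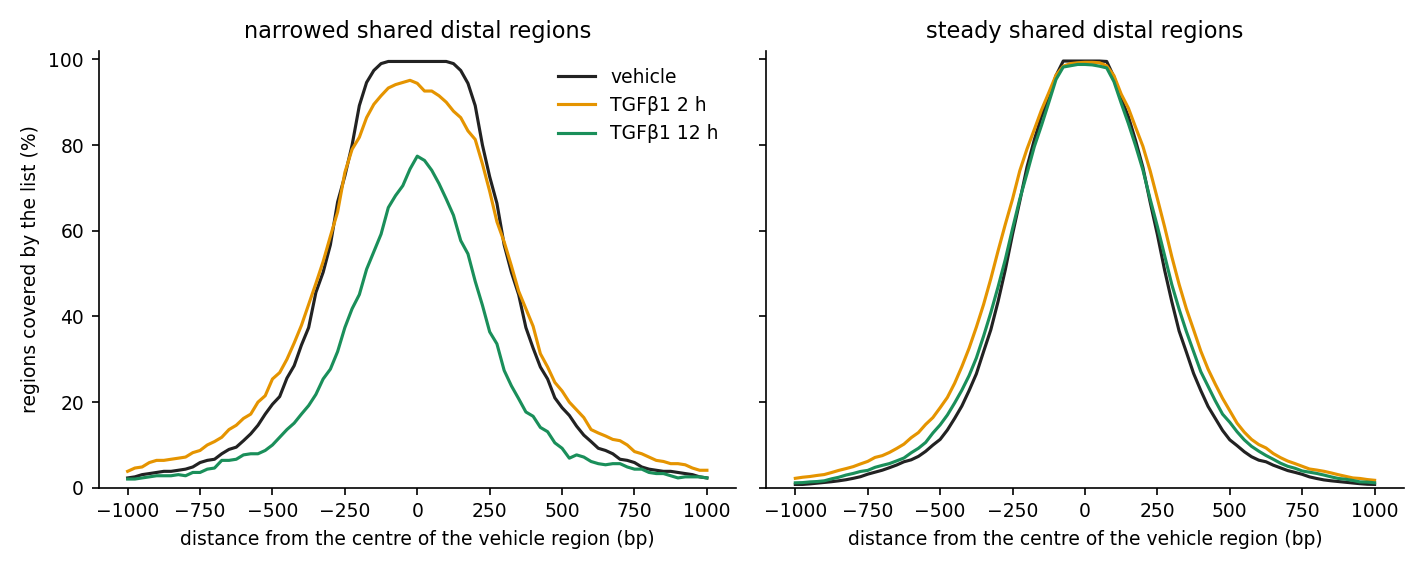
Share of regions (y, %) covered by the vehicle, 2 h and 12 h lists at each distance from the centre of the vehicle region (x, bp), for the 390 narrowed and the 2384 steady shared distal regions. In the narrowed regions the 12 h curve reaches 77.4% at the centre and lies under the vehicle curve over its flanks, while the 2 h curve lies near the vehicle curve at 250 bp and above it further out.

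The vehicle centre was covered at 12 h in 302 of 390 members, 77.4%, and at 2 h in 368, 94.4%. In the steady regions these shares were 98.8% and 99.3%. At 250 bp to the right of the centre, the lists covered 72.6% of the members in vehicle, 69.2% at 2 h and 36.4% at 12 h. In 16 members, 4.10%, the 12 h region overlapped no vehicle base pair and lay beside it within the same union region, so these were narrower and also displaced. The share was 0.545% for steady regions. In 172 members, 44.1%, the 12 h region lay wholly inside the vehicle region.

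A single interval in each list was found in 305 members, 78.2%, and in these both edges can be followed. By 12 h the left edge had moved inward by a median of 91.0 bp and the right edge by a median of 94.0 bp. The 2 h edges had median moves of -8.00 bp and -3.00 bp, where a minus sign marks an outward move. Both 12 h edges lay inside the vehicle interval in 131 of the 305, 43.0%, beside 8.22% of the single-interval steady regions. In 239 of the 305, 78.4%, 1 edge held at least 80% of the trimmed base pairs, and the count was 1080 of 2069 single-interval steady regions, 52.2%. The steady share is taken over all of these regions, also those with no edge moved inward, whereas every such member had 1. The 2 shares therefore do not compare how one-sided the trimming was. The trimming of a given member was mostly one-sided, a pattern also frequent in steady regions. The left edge was trimmed more than the right in 149 of the 305, 48.9%.

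Some members held fewer intervals at 12 h than in vehicle. In 58 members, 14.9%, the vehicle list held at least 2 intervals, and in 52 of them a single one was left at 12 h. The 2 h list still held at least 2 intervals in 39 of these 52. In 29 of the 52, 55.8%, the 12 h width was at or above that of the widest vehicle interval. In the rest it was under that width. Going from several intervals to 1 was seen in 3.15% of steady and 1.19% of widened regions. Counted as interval base pairs without the bridged gaps, 372 of the 390 members, 95.4%, were still under the limit of 0.8.

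The 5 members with the lowest ratios all went from 2 vehicle intervals to 1 interval at 12 h. Their vehicle widths and lost base pairs count any gap between the 2 intervals. The lowest, at chr10:43159654-43161538, overlapped a coding exon of Pdss2, a gene of coenzyme Q synthesis, with the predicted gene Gm10281 as the nearest coding 5′ end. It covered 1885 bp (vehicle), 1628 bp (2 h) and 325 bp (12 h), a ratio of 0.172. Most of its loss thus came after the 2 h list.

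The region at chr15:89008033-89009656, in an intron of Plxnb2, a semaphorin receptor gene, covered 1584 bp, 1624 bp and 314 bp. The one at chr6:54966285-54967273, 20722 bp from the 5′ end of the glycyl-tRNA synthetase gene Gars, covered 931 bp, 989 bp and 187 bp. The intergenic one at chr15:77197585-77198980, nearest to Apol7a of the apolipoprotein L family, covered 1306 bp, 1396 bp and 309 bp. These 3 were slightly wider at 2 h than in vehicle, and all of their lost base pairs were covered at 2 h.

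The region at chr15:83034981-83035904, nearest to the cytochrome b5 reductase gene Cyb5r3, differed from the others. It covered 922 bp (vehicle), 232 bp (2 h) and 237 bp (12 h), and none of its 686 lost base pairs was covered at 2 h. Its width at 2 h was therefore already that of 12 h.

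**Figure D3:**
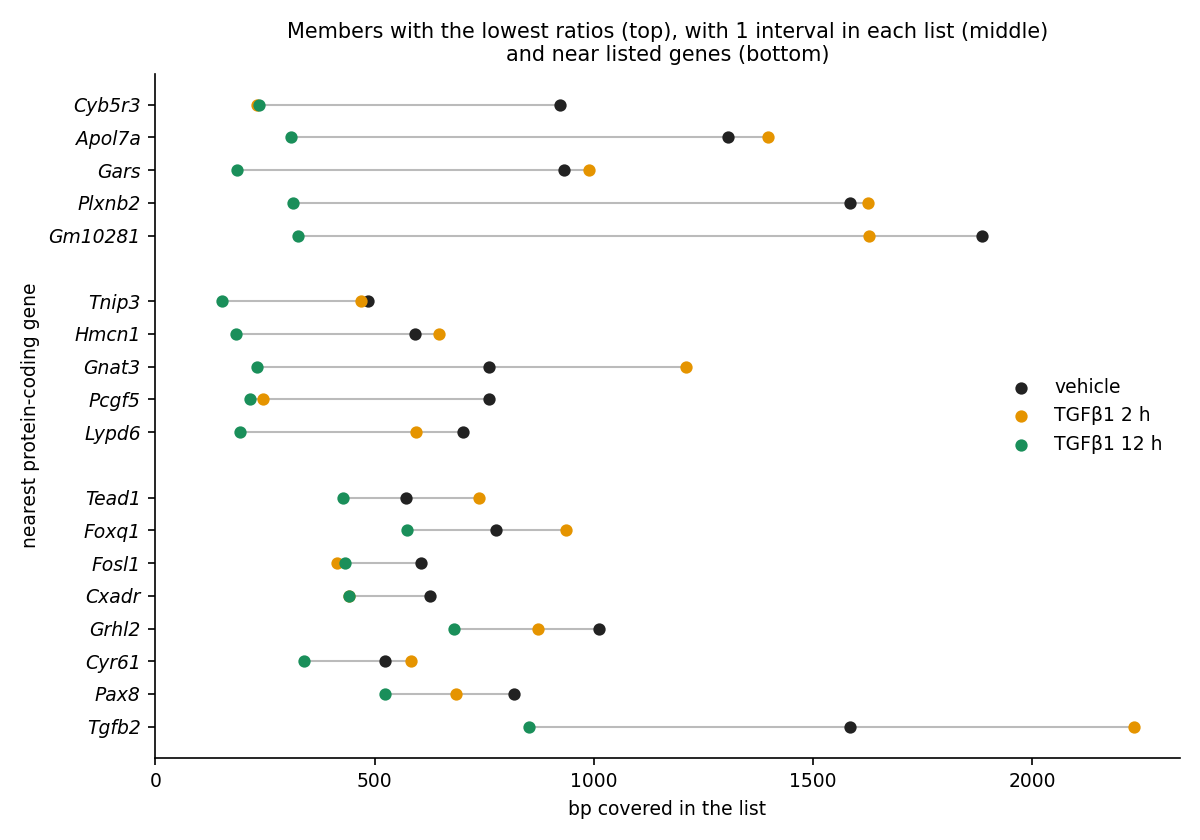
Base pairs covered in the vehicle, 2 h and 12 h lists (x) for the 5 members with the lowest ratios, the 5 with the lowest ratios among members with 1 interval in each list, and the 8 members nearest to a gene of the lists below, each named by its nearest protein-coding gene (y). The 12 h point lies left of the vehicle point in every row by selection, and the rule did not use the 2 h width. The 2 h point lies above the vehicle point in some rows, between both points in others (Grhl2, Pax8) and at or near the 12 h point in others. Near Cxadr it is hidden behind the 12 h point (442 and 441 bp).

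Among members with a single interval in each list, the lowest ratio, 0.277, belonged to a region in an intron of Lypd6, a Ly6 family gene, at chr2:49959352-49960052. It covered 701 bp (vehicle), 594 bp (2 h) and 194 bp (12 h). Its left edge moved inward by 445 bp and its right edge by 62.0 bp. The region in an intron of Pcgf5, a Polycomb group gene, at chr19:36525787-36526548, covered 762 bp, 245 bp and 217 bp, so that it was narrow from 2 h on and was cut mainly on its right side, by 516 bp. The region near Hmcn1, a gene of an extracellular matrix protein, at chr1:153000068-153000765, covered 592 bp, 647 bp and 185 bp and was trimmed on both sides.

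The other members of this group were displaced. The region at a coding exon of Gnat3, at chr5:17505480-17506698, covered 761 bp, 1211 bp and 231 bp, and the 12 h interval shared no base with the vehicle interval, while the 2 h interval spanned all 761 bp of it. The region near Tnip3, at chr6:65534865-65535603, covered 486 bp, 468 bp and 153 bp and likewise had no vehicle base pair covered at 12 h.

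The limit of 0.8 falls in a continuous range. Just inside it lay regions nearest to Dgat2 with 633 bp in vehicle and 506 bp at 12 h, Maml3 with 713 bp and 570 bp, and Myo10 with 554 bp and 443 bp. Just outside lay regions nearest to Gas2l3 with 305 bp and 244 bp, Ccdc3 with 461 bp and 369 bp, and Acvr2a with 361 bp and 289 bp. The ratios of the first 3 were 0.7994, 0.7994 and 0.7996, and those of the last 2 were 0.8004 and 0.8006.

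The members lay in the same kinds of place as the other shared distal regions. Intergenic positions held 213 members, 54.6%, beside 55.5% of steady and 54.5% of widened regions, and introns held 143, 36.7%, beside 38.1% and 38.2%. Coding exons held 25 members, 6.41%, beside 4.11% and 4.89%. The median distance to the nearest coding 5′ end was 22491 bp in members, 24181 bp in steady and 27094 bp in widened regions. The vehicle score, which the authors deposited without a scale and which was at most 1000, reached 1000 in 162 members, 41.5%, beside 49.0% of steady and 31.1% of widened regions.

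The members spread over 373 nearest genes, of which 17 had 2 members and none had 3 or more, and 38 members, 9.74%, had another member within 50 kb. Near Fam3c, the gene of a secreted interleukin-like protein, the regions at chr6:22311702-22312328 and chr6:22328316-22330560 had ratios of 0.381 and 0.379. Near Etv3, an ETS factor gene, a region with 1203 bp, 1361 bp and 347 bp lay 2756 bp from one with 449 bp, 400 bp and 255 bp. Near Sall1, a zinc finger factor gene, regions 1754 bp apart covered 1141 bp, 665 bp and 618 bp, and 671 bp, 494 bp and 499 bp. The Etv3 pair lost most of its width between 2 h and 12 h, whereas the Sall1 pair was near its 12 h width at 2 h. These 3 genes were picked after their values were seen.

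Chromosome 15 carried 45 members, 10.5% of its 427 shared distal regions (Wilson interval 7.97 to 13.8), the highest share of the 20 chromosomes. The other chromosomes together had 345 members among 5946 shared distal regions, 5.80%, and the lowest share was 3.40% on chromosome 17. Of the 5 lowest ratios, 3 were on chromosome 15, near Plxnb2, Apol7a and Cyb5r3. Its shared distal regions had a median ratio of 1.23, and 14 of its 354 shared promoter regions, 3.95%, were narrowed. The chromosome held 5.06% of all union regions and 10.7% of the 457 found in vehicle alone. It was singled out after the shares were seen, was not tested, and results that change without it are given with both values.

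TGFβ signalling runs from ligands through receptors and SMADs to target genes, and 1 region nearest to a gene of that pathway was a member. It was 1 of 56 shared distal regions (1.79%) nearest to 31 TGFβ and BMP pathway genes, of which 38 (67.9%) were widened, beside 6.12% and 56.5% over all shared distal regions. The member was nearest to Tgfb2, the gene of a TGFβ ligand, at chr1:188271321-188273693, 184455 bp from its 5′ end. It covered 1585 bp (vehicle), 2232 bp (2 h) and 852 bp (12 h). It widened first and went from 2 vehicle intervals to 1 at 12 h.

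Regions nearest to epithelial genes were members about as often as the 6.12% of all shared distal regions. Of 19 shared distal regions at 24 genes of epithelial adhesion and junctions, 1 (5.26%) was a member, near Cxadr, which encodes a junction adhesion receptor. It covered 627 bp, 442 bp and 441 bp, so its 2 h and 12 h widths were alike. Of 36 regions at 22 epithelial transcription and splicing regulators, 2 (5.56%) were members. The region nearest to Grhl2, an epithelial transcription factor gene, at chr15:37050094-37051105, covered 1012 bp, 873 bp and 680 bp. The region in an intron of Pax8, a paired-box factor gene, at chr2:24308426-24309288, covered 817 bp, 685 bp and 523 bp. Both became narrower from list to list, and the keratin list had 0 members among 5 regions.

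At 12 genes of EMT transcription factors, 1 of 16 regions (6.25%, beside 6.12% overall) was a member, 51040 bp from Foxq1, a forkhead factor gene. It covered 777 bp, 937 bp and 574 bp. Of the AP-1 family genes, Fosl1, which encodes the FOS family protein FRA1, had a member 2305 bp from its 5′ end, at chr19:5444652-5445398, 1 of 13 regions (7.69%, beside the same 6.12%). It covered 606 bp, 415 bp and 432 bp, and none of its 200 lost base pairs was covered at 2 h.

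The Hippo list had 2 members among 21 regions (9.52%, beside 6.12% of all shared distal regions). The region near Cyr61, a target gene of YAP and TEAD, lay 3205 bp from its 5′ end at chr3:145316154-145316735 and covered 523 bp, 582 bp and 339 bp. The region in an intron of Tead1, which encodes the DNA-binding partner of YAP, covered 572 bp, 739 bp and 427 bp. Both were wider at 2 h than in vehicle. The nearest gene is a position and not a shown target, and the counts of 0 to 2 members a list were not tested.

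DNA sequence played no part in the selection, so each motif was compared by Fisher's exact test (two-sided), with p-values adjusted by the Benjamini-Hochberg method over 10 motifs and 2 comparisons. Each region was scanned in 500 bp around its vehicle centre, on both strands. The regions are the units and are not replicates of a condition, so the tests compare classes of regions in these lists. An AP-1 match was found in 153 of 390 members, 39.2% (Wilson interval 34.5 to 44.2), in 47.1% of steady, in 56.8% of widened and in 46.8% of all 27986 distal regions. The difference of members from widened regions was -17.6 percentage points (odds ratio 0.490, 95% interval 0.396 to 0.607, adjusted p = 8.91e-10, Fisher's exact test).

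Members also held AP-1 less often than steady regions, with an odds ratio of 0.726 (0.584 to 0.904, adjusted p = 0.0434, Fisher's exact test). This call was close to the threshold. Without chromosome 15 the odds ratio was 0.740 with an adjusted p of 0.0584, with members chosen on interval base pairs it was 0.747 with 0.0863, and over whole vehicle regions it was 0.889 with 0.512 (Fisher's exact tests). The window follows the vehicle centre, which the 12 h list covered in 77.4% of members, 98.8% of steady and 99.1% of widened regions. The part of window position in the differences from steady and from widened regions was not tested.

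**Figure D4:**
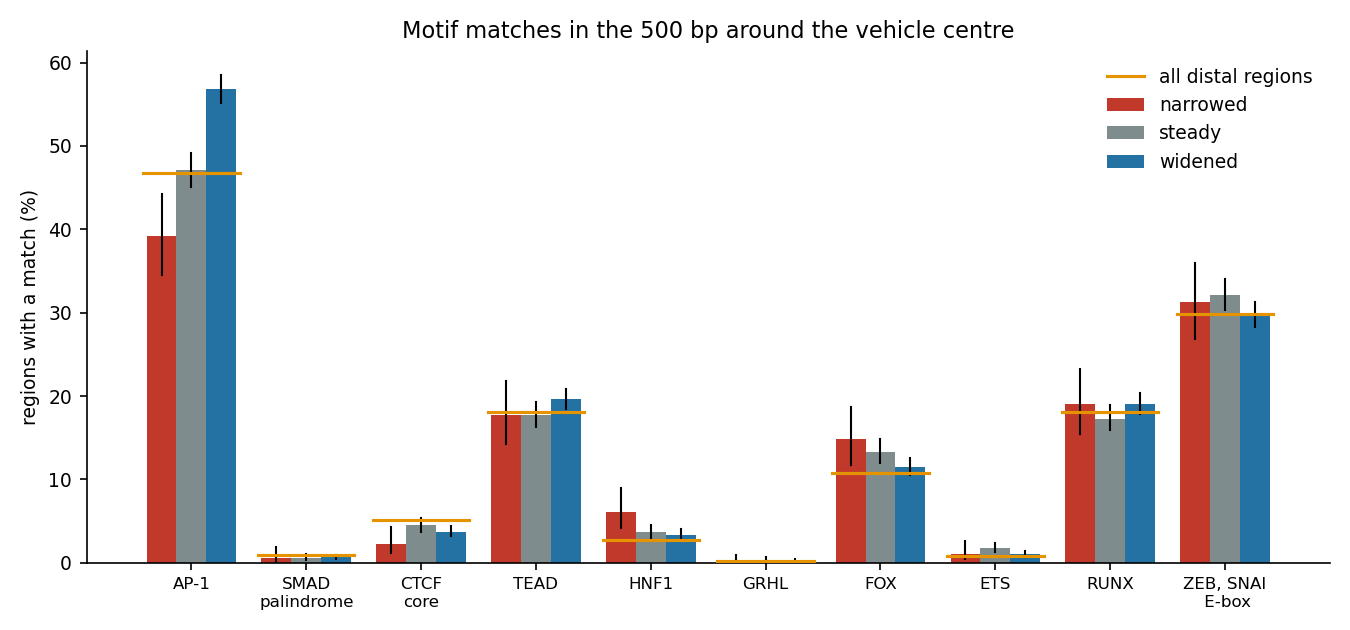
Share of narrowed, steady and widened shared distal regions with a motif match in the 500 bp around the vehicle centre (y, %), by motif (x). Black lines are 95% Wilson intervals and orange lines the share over all 27986 distal regions. AP-1 shares rise from 39.2% in narrowed to 56.8% in widened regions, and the HNF1 share is 6.15% in narrowed regions.

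The HNF1 motif was found in 24 members, 6.15% (Wilson interval 4.17 to 8.99), in 3.69% of steady, 3.36% of widened and 2.77% of all distal regions. The odds ratios were 1.71 against steady (1.08 to 2.72, adjusted p = 0.132) and 1.88 against widened regions (1.20 to 2.96, adjusted p = 0.0633), both by Fisher's exact test. Neither passed the threshold of 0.05 after adjustment. Over whole vehicle regions both did, at 1.91 and 2.59, and in windows of 200 bp the odds ratios were 0.675 and 0.674. The vehicle regions of members were wider than those of the other classes, so whole regions gave them more sequence. Of the 24 members, 18 had a match in the part of the vehicle region kept at 12 h and 6 in the lost part.

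The remaining 8 motifs passed in neither comparison. The CTCF core, the site of a factor that anchors chromatin loops, was found in 2.31% of members, 4.49% of steady, 3.75% of widened and 5.10% of all distal regions. Its odds ratio against steady regions was 0.503 (0.252 to 1.00, adjusted p = 0.192, Fisher's exact test) and 0.906 within 5 bins of vehicle width. The SMAD palindrome GTCTAGAC was found in 2 members, 0.513%, beside 0.629% of steady and 0.983% of all distal regions. The GRHL site AACCGGTT was found in 0 of 390 members, beside 0.336% of steady, 0.194% of widened and 0.175% of all distal regions. The count of 0 allows a share of up to 0.769% by a floor of 3 regions and of 0.975% by the Wilson interval. The forkhead site TGTTTAC was found in 14.9% of members, 13.3% of steady, 11.5% of widened and 10.8% of all distal regions, and the odds ratio against widened regions was 1.34 (0.996 to 1.80).

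Shares for the other sites were close in the 3 classes. The ZEB and SNAI E-box CACCTG, bound by repressors of epithelial genes, was found in 31.3% of members, 32.1% of steady and 29.9% of all distal regions. The TEAD sites ACATTCC and GCATTCC were found in 17.7% of members, with an odds ratio of 0.997 (0.753 to 1.32) against steady regions. The RUNX site TGTGGTT was found in 74 members and the ETS site CCGGAAGT in 4. Over all distal regions these 3 sites were found in 18.1%, 18.1% and 0.804%. The median GC content of the windows was 48.0% in members, 48.6% in steady and 48.0% in widened regions.

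Within the members, AP-1 matches lay mostly in the base pairs that stayed listed. The kept parts of their vehicle regions held 207 matches in 164 kb, 1.26 per kb (exact Poisson interval 1.10 to 1.45), and the lost parts 29 in 130 kb, 0.223 per kb (0.150 to 0.321). The ratio was 5.65. Of 194 members with a match in their vehicle regions, 167 had matches in the kept part alone, 17 in the lost part alone and 10 in both. The 12 h list defined the parts, so these are descriptions, and the intervals cover counting error only.

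AP-1 matches were denser in the middle of the vehicle regions in every class. Vehicle regions were divided into a central part and an outer part of equal length. The central part of the members' regions held 0.978 AP-1 matches per kb and the outer part 0.627, beside 1.53 and 0.828 in steady and 2.65 and 1.06 in widened regions. The ratio of central to outer density was 1.56 in members (1.20 to 2.03), and the part of position in the difference between kept and lost parts was not tested. The lost parts of steady regions held 0.124 matches per kb (0.0618 to 0.221) and those of widened regions 0.135 (0.0367 to 0.345). A low density in lost parts, under that of kept parts, was thus not particular to the members.

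**Figure D5:**
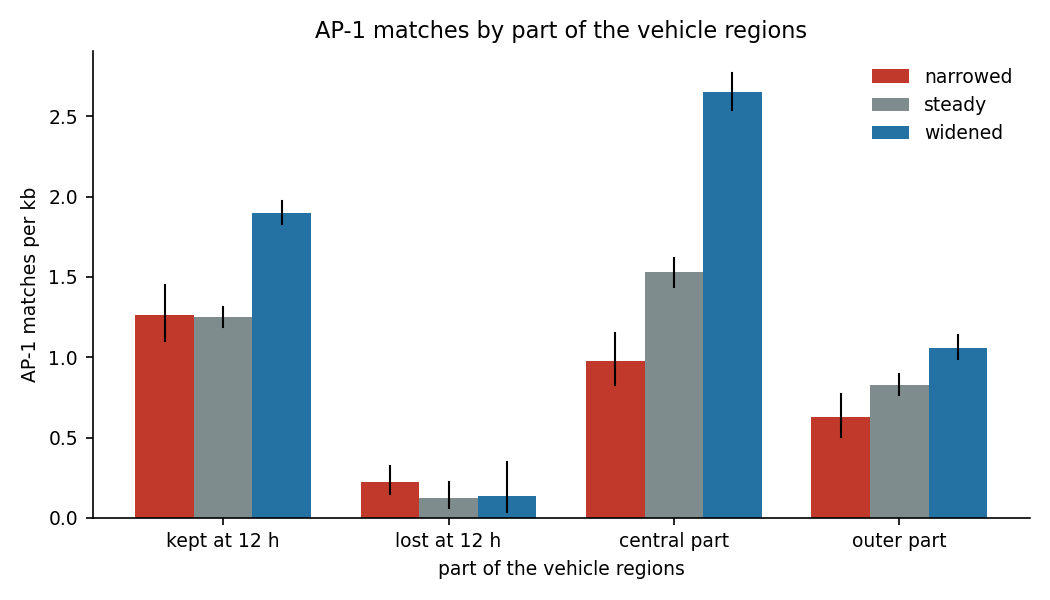
AP-1 matches per kb of vehicle region (y) in the parts kept or lost at 12 h and in the central and outer parts (x), for narrowed, steady and widened regions. Black lines are exact 95% Poisson intervals. Lost parts hold 0.223 matches per kb or fewer in each class, and the central part holds 0.978 in narrowed and 2.65 in widened regions.

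The other motifs varied in this division. The E-box CACCTG had 0.811 matches per kb in kept and 0.824 in lost parts of the members. TEAD sites had 0.433 and 0.285, forkhead sites 0.299 and 0.200, and RUNX sites 0.519 and 0.254 per kb. HNF1 sites had 0.140 and 0.0693 per kb. The CTCF core had 0.0915 (0.0512 to 0.151) in kept and 0.0154 (0.00187 to 0.0556) in lost parts, 15 and 2 matches, and ETS sites 0.0549 and 0.00770, 9 matches and 1. In the lost base pairs that the 2 h list covered, AP-1 had 0.248 matches per kb (0.157 to 0.372).

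Vehicle regions that were absent at 12 h were counted around the members. A lost region, present in vehicle and in no 12 h region, was found within 50 kb of 77 members, 19.7%, of 15.7% of steady and of 12.7% of widened regions. The differences were 4.01 percentage points (0.0637 to 8.48) and 7.07 (3.26 to 11.4). Without chromosome 15 these differences were 3.32 and 6.00 points, given without an interval. Within 5 bins of vehicle width the odds ratio was 1.32 (1.00 to 1.74) against steady and 1.57 (1.17 to 2.11) against widened regions. A region found in both TGFβ lists and not in vehicle lay within 50 kb of 235 members, 60.3%, of 64.1% of steady and of 66.0% of widened regions. These measures come from the lists that chose the members, so intervals are given and no test.

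Most promoters closest to members were wider at 12 h than in vehicle. Each shared promoter region was counted once, and those nearest to regions of both compared classes were left out. The nearest promoter was narrower at 12 h than in vehicle for 33 of 189 members' promoters, 17.5%, and 18.3% of those of steady regions, a difference of -0.842 points (-5.99 to 5.47). Against widened regions the shares were 21.7% and 15.4%, a difference of 6.35 points (0.464 to 13.5), which was 0.350 points when narrower meant a ratio under 0.8. Over the 358 promoters nearest to a member, the median ratio of 12 h to vehicle width was 1.28, with quartiles of 1.04 and 1.76, beside 1.21 for steady regions.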

How the data were processed

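ATAC-seq peak lists of NMuMG cells were used, 1 per condition, which the authors made from both replicates by mapping reads to mm9, calling peaks with MACS2 (2.1.2 in the submitters' processing notes) and keeping peaks reproducible between replicates. Each line gives the position of a peak. In the vehicle list a further column holds a score that the authors deposited without a scale; in the TGFβ lists that column only numbers the lines. The lists hold no counts, so the depth behind a region is unknown, and the read totals in the study's methods, lowest for both 12 h libraries, were not used. No replicate spread could be computed, and no test between conditions was run. Groups came from the sample labels.

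Regions were built with the limits given in the results. The 5′ ends were the 86879 distinct ones of GENCODE vM1 on NCBIM37, and genes were assigned by the nearest protein-coding 5′ end. Steady and widened classes, windows of 500 bp, exact motif matches on both strands, Wilson, Woolf, Newcombe and exact Poisson intervals (95%), Fisher's exact tests and Mantel-Haenszel odds ratios were computed with Python 3.11.15, numpy 2.4.6, scipy 1.17.1 and statsmodels 0.14.6, and figures with matplotlib 3.10.9. Intervals and tests treat regions as independent, which neighbours are not. The members, gene lists and motifs were chosen with earlier results of these data known. Fisher tests planned for lost neighbours and promoters are not given, because those measures come from the lists that chose the members. Named regions were the 5 lowest ratios, the 5 lowest among single-interval members, the 3 on each side of the limit, and members nearest to a listed gene, except that the list of mesenchymal marker and matrix genes is not reported here. Sequences came from the lowest-ratio members that held the motif and lay neither in an exon nor on chromosome 18. Genes with 2 members were picked after their values were seen. Tfap2a and Tfap2c were not found under these symbols in the annotation. The functions were tested on simulated data.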

Additional observations from a re-analysis of the deposited data

How the results depend on the processing

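No paired analysis was possible because each condition has 1 list made from both replicates, so leaving out a replicate was not possible either. The number of members was 221 with a limit of 0.7 and 641 with 0.9, against 390, and stayed within 1.5 times under the other 7 settings of merging, width, 5′ ends and chromosome 15. Against steady regions 1 motif passed the threshold, 3 over whole vehicle regions, and 0 with members by interval base pairs or without chromosome 15, where AP-1 had odds ratios of 0.747 and 0.740 (0.889 over whole regions, also not passing). Against widened regions 1 passed, and 7 over whole vehicle regions. Members were widest in vehicle, so whole regions gave them more sequence. The AP-1 difference from steady regions passed in windows of 200 bp and within bins of vehicle width. The difference in narrower nearest promoters from widened regions was 0.350 points at a ratio under 0.8.

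Odds ratios of motifs that had not passed changed side of 1 in these cases. In windows of 200 bp, against steady regions, they were 1.02 for the SMAD palindrome, 1.04 for TEAD, 0.675 for HNF1, 0.870 for forkhead and 1.05 for the E-box, and against widened regions 0.674 for HNF1. Members held 0 GRHL matches, so no odds ratio is compared for it. Over whole vehicle regions they were 1.11 for TEAD, 1.37 for ETS and 1.31 for the E-box against steady regions, and 1.06 for CTCF, 1.37 for TEAD and 1.68 for RUNX against widened regions. Within bins of vehicle width CTCF was 1.62, by interval base pairs RUNX was 1.02, and without chromosome 15 RUNX was 1.09, all against widened regions. The cause was not tested. The AP-1 difference from widened regions passed under all 5 alternatives, with odds ratios from 0.386 in windows of 200 bp to 0.722 over whole vehicle regions. Leaving out chromosome 15, and the density ratio in members with 1 interval in each list or without the single-interval members that had both edges inside, were chosen after seeing the data.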
